A study of Mus musculus with 18 samples.

Results

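Ribosome footprints were followed from acute to chronic endoplasmic reticulum (ER) stress in MIN6 cells, a mouse insulinoma line that makes insulin. The comparison set the 3 Ribo-seq libraries of cells held for 18 h in 200 µM cyclopiazonic acid (CPA18) against the 3 libraries of cells held for 1 h in the same dose (CPA1), paired by the experiment they came from. Control cells received DMSO for 18 h, and every treatment was run in 3 independent experiments with both Ribo-seq and mRNA-seq, which gave 18 libraries. All cells came from this 1 tumour line, so the values describe a dividing line and not islet tissue. The members were the genes with at least 1 read in each of the 9 Ribo-seq libraries, 8031 of the 17198 genes with a read anywhere in the series.

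CPA blocks the pump that returns calcium to the ER, and the loss of ER calcium disturbs the folding of secretory proteins. The unfolded protein response (UPR) then acts through the sensors PERK, IRE1 and ATF6. PERK phosphorylates the initiation factor eIF2, which slows most initiation while mRNAs with upstream open reading frames, such as that of the transcription factor ATF4, keep or gain ribosomes. In Ribo-seq, nuclease digestion leaves the stretch of mRNA that a ribosome covers, so a footprint count reflects both the amount of an mRNA and the ribosomes on each copy. The question put to this comparison was which proteins the cells turn to, and away from, between the first hour and a settled state of stress.

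The CPA1 libraries held 519309, 392613 and 470602 footprints, and the CPA18 libraries 168129, 203108 and 553842. CPA18 of experiments 1 and 2 were thus the shallowest of the 9 libraries, and 3 reads in them corresponded to 17.8 and 14.8 RPM, the reads of a gene scaled to a common library total. In CPA18 of experiment 3 they corresponded to 5.42 RPM, and in the CPA1 libraries to 5.78, 7.64 and 6.37 RPM. Values at or under these levels stand on 3 reads or fewer, and folds that rest on them are uncertain. Of the genes, 1661 had a read in all CPA1 libraries but not in all CPA18 libraries, and 479 the reverse, so genes nearly silent at 18 h are under-represented among the members. Pearson's r of log2(RPM + 1) between libraries of the same treatment ran from 0.852 to 0.906 across genes. All 12 beta-cell markers were members, and their summed share of footprints was 24.3% to 26.5% at CPA1 and 10.5% to 11.9% at CPA18. Of 9 markers of other islet cells only Gcg and Ttr were members, of 16 acinar and duct markers Krt7, and of 16 markers of stroma, endothelium and immune cells Acta2. Over the 9 libraries these lists held 0.0619% to 0.437%, 0.0291% to 0.0522% and 0.000595% to 0.00369% of footprints. In bulk samples such as these, fewer cells of a kind and less RNA per cell cannot be told apart.

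Between 1 h and 18 h of CPA the share of footprints on insulin and immediate early genes fell, and that on ribosomal proteins and the folding machinery of the ER rose. By edgeR's quasi-likelihood test with the experiment as a block, 1777 of 8031 genes (22.1%) changed at an adjusted p under 0.05, of which 1346 rose (16.8%) and 431 fell (5.37%). A log2 fold change over 1 was found for 932 of the genes that rose and under −1 for 270 of those that fell. All 3 experiments had the same sign for 1298 of the genes that rose and 412 of those that fell. Without experiment 2, 1145 genes were called, 877 up and 268 down. The split between directions depended on the scaling. With library sizes set to total counts, the median log2 fold change was 0.31, with TMM factors it was −0.0049, and with totals that leave out Ins1, Ins2 and Lars2 it was 0.13. TMM called 681 genes up (8.48%) and 808 down (10.1%), so 45.7% of its calls were up against 75.7% on total counts. All 681 were among the 1346, and all 431 genes that fell on total counts also fell under TMM. Counts of gene lists are therefore given on both scales, and medians of lists relative to the median gene unless a median log2 fold change is named. List medians from control to CPA1 are plain log2 values.

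**Figure D1:**
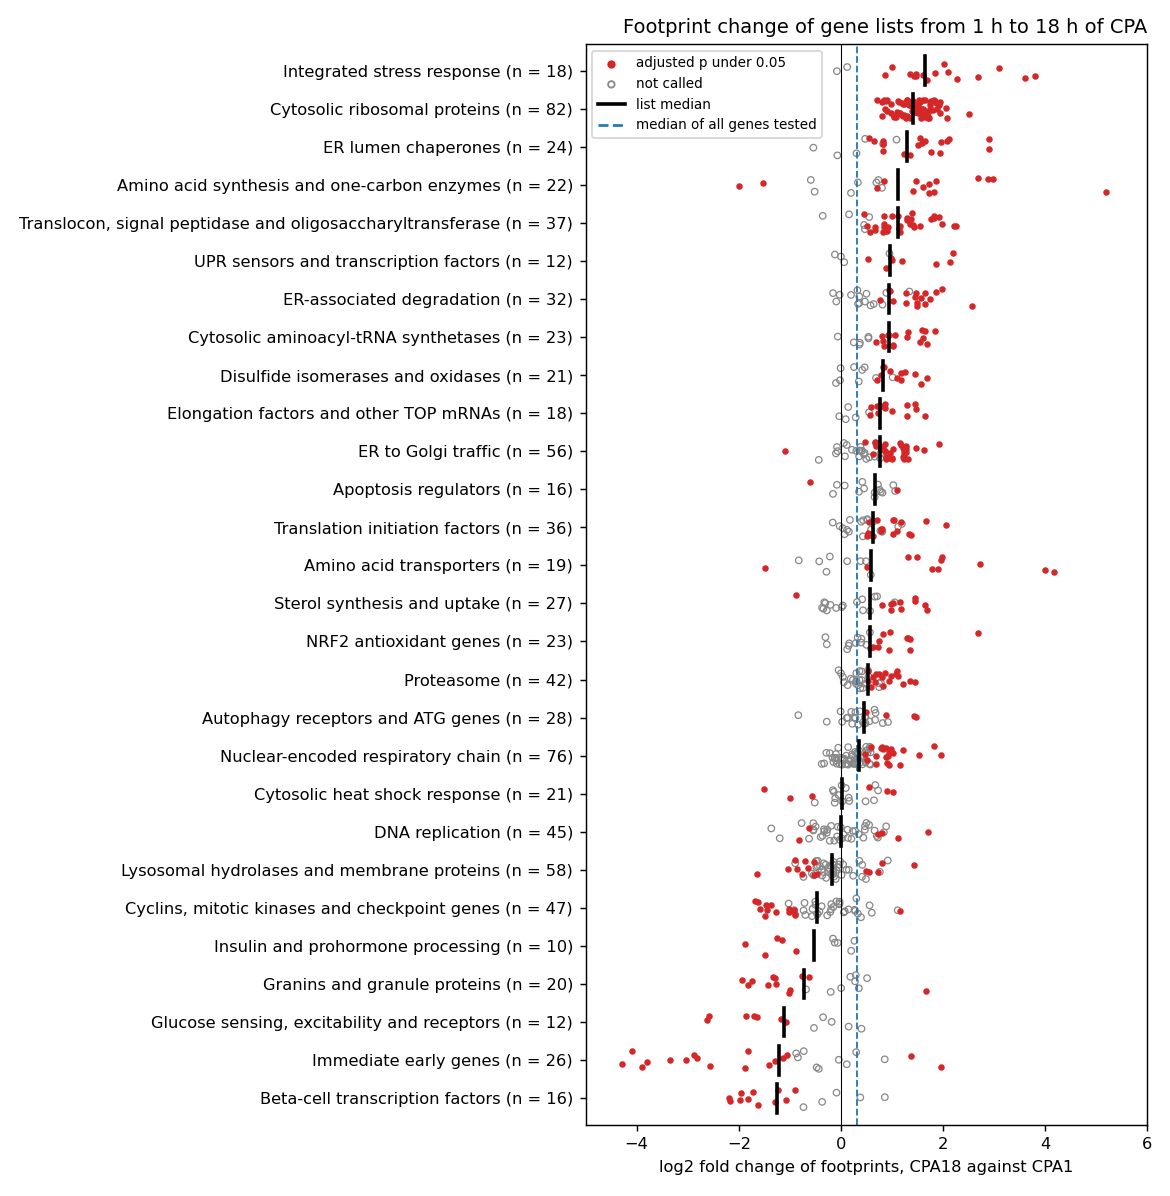
Log2 fold change of footprints, CPA18 against CPA1 on total counts (x axis), for the members of 28 gene lists (y axis, ordered by median). Filled red points passed an adjusted p under 0.05, open points did not, black bars mark list medians and the dashed line the median of all 8031 genes, 0.31. Integrated stress response genes and ribosomal proteins lie at the top, and beta-cell transcription factors, immediate early genes and glucose-sensing genes at the bottom.

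Immediate early genes, whose transcription responds to a stimulus within minutes, gave up most of their footprints. Of 26 members 15 fell and 2 rose (17 and 1 under TMM), and the list median lay 1.52 below the median gene on the log2 scale. Nr4a1, an orphan nuclear receptor, had 468, 537 and 680.0 RPM at CPA1 and 11.9, 14.8 and 59.6 RPM at CPA18, after 51.1, 94.7 and 273 RPM in the controls (log2 fold change −4.29, SE 0.27, adjusted p = 4.54e-47). The CPA18 values of Nr4a1 in experiments 1 and 2 stand on 3 reads or fewer. For Fos, a subunit of the AP-1 transcription factor, the levels were 1144, 1694 and 809.6 RPM at CPA1 and 47.6, 44.3 and 97.5 RPM at CPA18, after 142, 197 and 81.2 RPM in the controls (log2 fold change −3.89, SE 0.22, adjusted p = 5.82e-59). In both genes every CPA18 library lay below every CPA1 library, and the pattern held for 7.62% of all genes in this direction. Egr1, a zinc finger transcription factor, had 2168, 2364 and 1003 RPM at CPA1 and 119, 83.7 and 209 RPM at CPA18 (log2 fold change −3.36, SE 0.20, adjusted p = 6.83e-55). Egr4 of the same family had 350.5, 529.8 and 249 RPM at CPA1 and 11.9, 4.92 and 28.9 RPM at CPA18 (log2 fold change −4.10, SE 0.31, adjusted p = 1.66e-34), and the CPA18 values stand on 2, 1 and 16 reads.

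The other AP-1 subunits Fosb (−3.80) and Junb (−2.87) fell as well, as did the antiproliferative factor Btg2 (−3.03) and the MAP kinase phosphatase Dusp1 (−2.81), all values being log2 fold changes. Sik1, a kinase induced by cAMP and outside this list, had 275, 222 and 178 RPM at CPA1 and 5.95, 4.92 and 30.7 RPM at CPA18 (log2 fold change −3.82, SE 0.35, adjusted p = 1.43e-24). Only 1 read each lay behind the 2 lowest of its CPA18 values. Of the list, 23 of 26 members had risen from control to CPA1, where 3.66% of all genes rose, and the CPA1 libraries are shared between both comparisons. The summed share of the list was 0.962%, 1.15% and 0.717% of footprints at CPA1, 0.224%, 0.204% and 0.285% at CPA18 and 0.204% to 0.259% in the controls. The CPA1 shares lay above all others, and the CPA18 and control shares overlapped. Against the direction of the list, Myc, the growth-promoting transcription factor, had 7.70, 17.8 and 19.1 RPM at CPA1 and 41.6, 68.9 and 57.8 RPM at CPA18 (log2 fold change 1.97, SE 0.44, adjusted p = 1.36e-04). Ier3 also rose on total counts (log2 fold change 1.38, adjusted p = 0.00823) but not under TMM (adjusted p = 0.0567). In mRNA-seq 15 of 24 members with a value fell and 4 rose, where 5.53% of all mRNAs fell and 31.9% rose.

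The share of footprints on insulin, the main product of the cells, fell. Total protein synthesis was not measured in these libraries, so the shares do not give the amount of insulin made. Ins2 took 15.2%, 15.5% and 17.4% of all footprints in the CPA1 libraries and 4.81%, 6.11% and 6.31% in the CPA18 libraries, against 16.4%, 18.2% and 15.8% in the controls. Its log2 fold change was −1.49 (SE 0.16, adjusted p = 2.02e-17). Ins1, the second mouse insulin gene, went from 2.46%, 2.44% and 2.45% of footprints to 0.573%, 0.701% and 0.719% (log2 fold change −1.88, SE 0.16, adjusted p = 1.78e-28). The counting error of these shares was small, with the Wilson 95% interval of the lowest, Ins1 in CPA18 of experiment 1, reaching from 0.538% to 0.610%. Ins1 and Ins2 are near copies, and how reads shared by both were assigned is not given in the sources used here. Among the 10 genes of insulin and prohormone processing 5 fell and none rose (6 and none under TMM), with a list median 0.83 below the median gene. The proinsulin convertases Pcsk2, at 2459, 2435 and 2261 RPM at CPA1 and 910.0, 1073 and 1210 RPM at CPA18 (log2 fold change −1.15, SE 0.16, adjusted p = 2.78e-11), and Pcsk1 (log2 fold change −1.26) were among the 5, and so was the oxidase Ero1b (−0.88). Islet amyloid polypeptide, which is stored beside insulin, did not follow: Iapp had 41532, 32072 and 33323 RPM at CPA1 and 39844, 35641 and 24493 RPM at CPA18 and did not pass the test (log2 fold change −0.12, SE 0.15, adjusted p = 0.633).

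Most transcription factors that define the beta cell fell. Of 21 genes listed 16 were members, and 11 fell and none rose on either scale, with a list median 1.57 below the median gene. Mafa, an activator of the insulin gene, had 726, 667 and 1031 RPM at CPA1 and 137, 138 and 267 RPM at CPA18 (log2 fold change −2.20, SE 0.20, adjusted p = 4.42e-25), after 318, 290.4 and 702 RPM in the controls. The homeodomain factor Mnx1 had 258, 367 and 372 RPM at CPA1 and 41.6, 78.8 and 84.9 RPM at CPA18 (log2 fold change −2.18, SE 0.24, adjusted p = 1.15e-17). Pdx1, which is needed for pancreas formation and insulin expression, had 505, 667 and 561 RPM at CPA1 and 291, 222 and 237 RPM at CPA18 (log2 fold change −1.23, SE 0.19, adjusted p = 3.62e-09). Nkx2-2 had 46.2, 68.8 and 61.6 RPM at CPA1 and 11.9, 29.5 and 19.9 RPM at CPA18 (log2 fold change −1.63, SE 0.42, adjusted p = 0.00107). In all 4 genes the CPA18 libraries lay below the CPA1 libraries without overlap. Isl1 (−1.98), Rfx6 (−1.95), Pax6 (−1.72), Neurod1 (−1.29), Foxa2 (−1.08) and Nkx6-1 (−0.91) also fell. Hnf4a (−0.73), Myt1 (−0.37), Glis3 (−0.09) and Insm1 (0.38) did not pass the test. Ucn3, a hormone of mature beta cells carried on this list, had 50.1, 40.8 and 44.6 RPM at CPA1 and 23.8, 14.8 and 7.22 RPM at CPA18 (log2 fold change −1.81, SE 0.48, adjusted p = 0.00178), and its mRNA fell by 3.66 on the log2 scale. From control to CPA1 none of the 16 had fallen and 2 had risen, where 2.63% of all genes fell and 3.66% rose. The list median of that step was 0.24, against 0.07 over all genes.

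Genes for glucose sensing, excitability and receptors followed the same course, with 7 of 12 members falling, none rising (8 and none under TMM) and a median 1.43 below the median gene. Slc2a2, the glucose transporter GLUT2, had 185, 219 and 157 RPM at CPA1 and 41.6, 19.7 and 27.1 RPM at CPA18 (log2 fold change −2.63, SE 0.30, adjusted p = 7.63e-16), after 229, 318 and 186 RPM in the controls. Cltrn, a membrane protein of the beta cell also called collectrin, had 1007, 1019 and 839 RPM at CPA1 and 167, 128 and 168 RPM at CPA18 (log2 fold change −2.58, SE 0.19, adjusted p = 1.11e-34). The incretin receptor Glp1r had 239, 232 and 157 RPM at CPA1 and 53.5, 59.1 and 68.6 RPM at CPA18 (log2 fold change −1.69, SE 0.25, adjusted p = 1.15e-09). Abcc8, the sulfonylurea receptor subunit of the ATP-sensitive potassium channel, fell (log2 fold change −1.08), while Kcnj11, its pore subunit, had a value of −0.18 and did not pass the test. Of 20 granins and granule proteins 11 fell and 1 rose (13 and 1 under TMM). The calcium sensor Scgn had 281, 311 and 140.2 RPM at CPA1 and 59.5, 49.2 and 63.2 RPM at CPA18 (log2 fold change −1.93, SE 0.26, adjusted p = 4.18e-12), the zinc transporter of the insulin granule Slc30a8 fell (−1.74) and so did the granin Chga (−1.0). Syt4, a synaptotagmin of secretory vesicles, was the 1 that rose, with 168, 186 and 164 RPM at CPA1 and 476, 576 and 592 RPM at CPA18 (log2 fold change 1.67, SE 0.20, adjusted p = 2.83e-15). The core fusion genes Snap25 (0.29), Vamp2 (0.28) and Stx1a (0.51) did not pass the test.

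**Figure D2:**
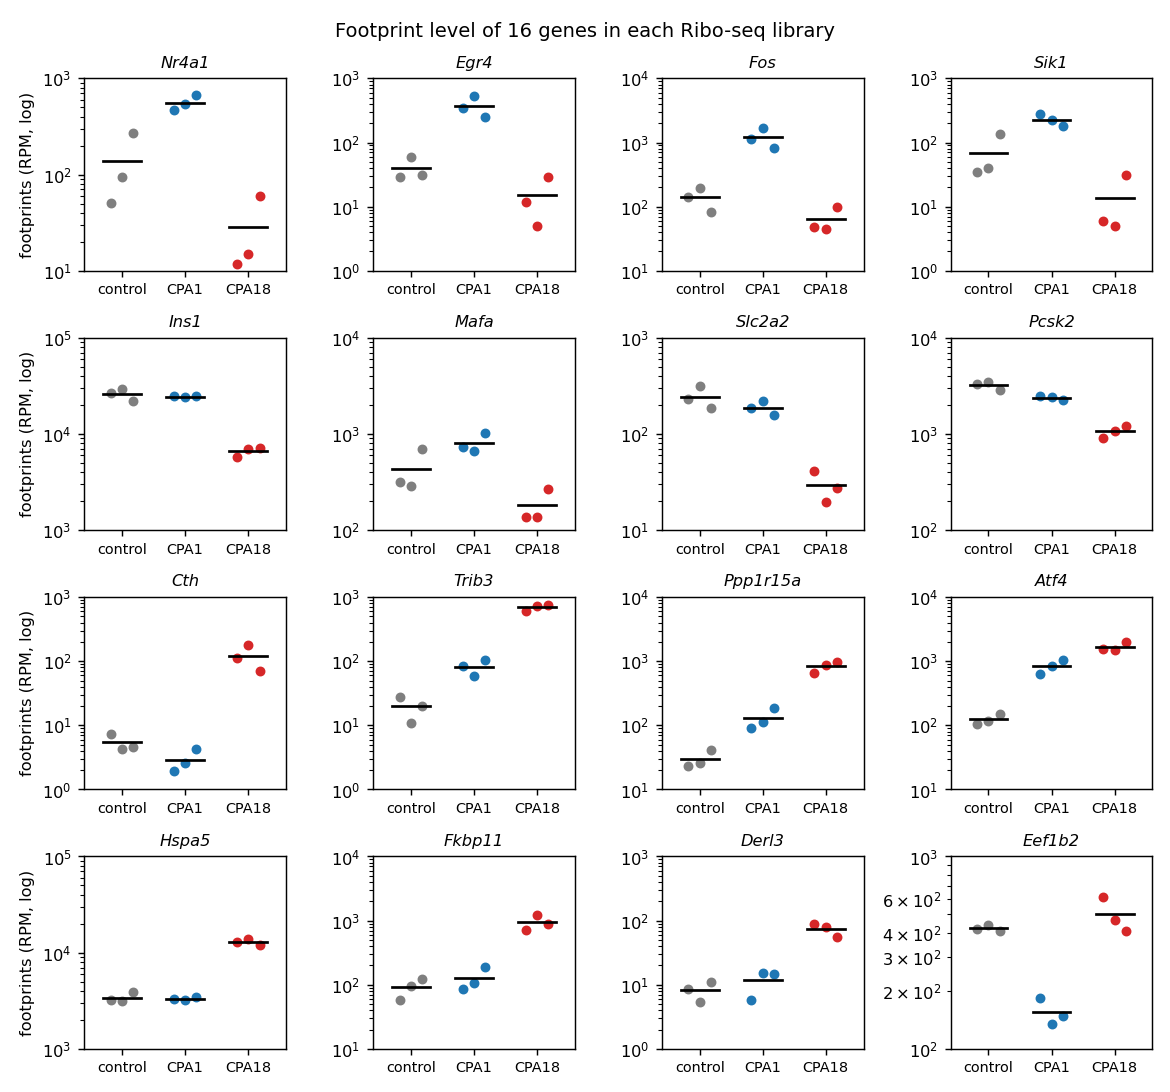
Footprint level (RPM, log axis) of 16 genes in the control (grey), CPA1 (blue) and CPA18 (red) Ribo-seq libraries. Points are the libraries of experiments 1 to 3 from left to right and bars are means. Nr4a1, Egr4, Fos and Sik1 are highest at CPA1, Ins1, Mafa, Slc2a2 and Pcsk2 are lowest at CPA18, Trib3, Ppp1r15a and Atf4 are higher at each step, and Eef1b2 is lowest at CPA1.

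The integrated stress response, the program downstream of eIF2 phosphorylation, rose further from an already raised level. Of 18 members 16 rose and none fell on both scales, and the list median lay 1.34 above the median gene. Its summed share went from 0.236%, 0.252% and 0.329% at CPA1 to 0.702%, 0.803% and 0.851% at CPA18, against 0.0788% to 0.0942% in the controls. Atf4, the transcription factor at its centre, had 635, 848 and 1060 RPM at CPA1 and 1540, 1516 and 1986 RPM at CPA18, after 105, 118 and 149.5 RPM in the controls (log2 fold change 1.0, SE 0.16, adjusted p = 1.74e-08). Ddit3, which encodes the transcription factor CHOP, had 48.1, 53.5 and 97.7 RPM at CPA1 and 202, 231 and 372 RPM at CPA18 (log2 fold change 2.01, SE 0.26, adjusted p = 8.07e-13). Ppp1r15a, the GADD34 subunit that brings a phosphatase to eIF2, had 90.5, 115 and 187 RPM at CPA1 and 666, 862 and 957 RPM at CPA18 (log2 fold change 2.69, SE 0.20, adjusted p = 1.35e-35). In these 3 genes the controls, CPA1 and CPA18 libraries formed 3 ranges that did not overlap. The counts cover whole transcripts, so footprints on the upstream reading frames of such mRNAs are included. The pseudokinase Trib3 rose by 3.10 and the stress protein Nupr1 by 3.80 on the log2 scale. Eif4ebp1, a repressor of cap-dependent initiation, had 7.70, 2.55 and 19.1 RPM at CPA1 and 107, 143 and 121 RPM at CPA18 (log2 fold change 3.60, SE 0.42, adjusted p = 1.13e-15). Its CPA1 value in experiment 2 lies under 3 reads, so the fold of Eif4ebp1 is uncertain. The 2 members without a call were Gadd45a (−0.08) and the cystine transporter Slc7a11 (0.12).

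Genes of amino acid supply rose in part beside it. Of 22 amino acid synthesis and one-carbon enzymes 13 rose and 2 fell (12 and 3 under TMM). Of 19 amino acid transporters 10 rose and 1 fell (8 and 2). Of 23 genes listed with the cytosolic aminoacyl-tRNA synthetases 17 rose and none fell (12 and none). The last list also holds Aimp1 and Aimp2, which rose, and Eef1e1, which did not pass the test, and these are not synthetases themselves. Cth, which makes cysteine from cystathionine, rose from 1, 1 and 2 reads at CPA1, under the counting limit of 3, to 19, 36 and 39 reads at CPA18, so its fold is uncertain. These gave 1.93, 2.55 and 4.25 RPM at CPA1 and 113, 177 and 70.4 RPM at CPA18 (log2 fold change 5.20, SE 0.53, adjusted p = 1.45e-19). Cbs, the enzyme directly before it in the pathway, went the other way, with 166, 234 and 234 RPM at CPA1 and 17.8, 34.5 and 88.5 RPM at CPA18 (log2 fold change −2.0, SE 0.27, adjusted p = 8.80e-12). The glutamine synthetase gene Glul fell too (−1.53). The mitochondrial folate enzyme Aldh1l2 had 63.5, 50.9 and 48.9 RPM at CPA1 and 499.6, 389 and 386 RPM at CPA18 (log2 fold change 2.97, SE 0.24, adjusted p = 5.98e-30). The serine pathway genes Phgdh (2.68), Psat1 (1.60) and Psph (1.86) all rose.

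Among the transporters, the glycine carrier Slc6a9 had 7.70, 7.64 and 8.5 RPM at CPA1 and 172, 113 and 107 RPM at CPA18 (log2 fold change 3.99, SE 0.43, adjusted p = 3.86e-18). Slc1a5, which carries glutamine and other neutral amino acids, stood on 1 read in each CPA1 library and on 5, 12 and 26 reads at CPA18 (adjusted p = 2.37e-09). The CPA1 level of Slc1a5 is at the counting limit, so its fold is uncertain. Slc7a2, a carrier of cationic amino acids, fell, with 223, 219 and 142 RPM at CPA1 and 29.7, 64.0 and 81.3 RPM at CPA18 (log2 fold change −1.49, SE 0.26, adjusted p = 2.43e-07). The synthetase gene Nars had 287, 273 and 219 RPM at CPA1 and 1077, 955 and 784 RPM at CPA18 (log2 fold change 1.84, SE 0.18, adjusted p = 2.30e-21) and Iars rose by 1.70 on the log2 scale. Dars (−0.06), Qars (0.25), Cars (0.36), Kars (0.37) and Farsa (0.54) did not pass the test.

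ATF4 and its partners are known to bind C/EBP-ATF response elements (CARE) in promoters of such genes. The letters TGATGNAA, on either strand, were searched in RefSeq promoter windows (GRCm38.p6, 250 bases before to 50 after a gene's start). They occurred for 4.51% of the 27025 genes with a window and 2.54% of the 6492 members with one. Of the integrated stress response members with a window 6 of 16 had a match, and of the aminoacyl-tRNA synthetase list 5 of 16. Of the amino acid synthesis enzymes 3 of 17 had one, and of the transporters 2 of 14. Matches also occurred in other lists, in 3 of 24 ER-associated degradation genes, 1 of 8 glucose-sensing genes, 2 of 19 sterol genes and 4 of 43 lysosomal genes. None occurred in 61 ribosomal protein genes and 19 immediate early genes. The lists overlap, so Herpud1 counts for both the stress response and ER-associated degradation, and Slc7a11 for both the stress response and the transporters. A match is a description of the letters and not a bound site. Windows around the match are printed for 6 of the members whose match lies before the start. They were picked by no set rule, so what the 6 share is not a result about the lists. Matched letters are in capitals, and windows are read along the strand of the gene.
Nupr1 (chr7:126625558-126625595, minus strand): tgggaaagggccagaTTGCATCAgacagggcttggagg
Chac1 (chr2:119351034-119351071, plus strand): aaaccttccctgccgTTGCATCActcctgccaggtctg
Herpud1 (chr8:94386302-94386339, plus strand): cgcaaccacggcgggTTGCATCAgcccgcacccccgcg
Vldlr (chr19:27216805-27216842, plus strand): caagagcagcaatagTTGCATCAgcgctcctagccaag
Pycr1 (chr11:120643829-120643866, minus strand): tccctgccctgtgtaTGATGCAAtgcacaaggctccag
Got1 (chr19:43524685-43524722, minus strand): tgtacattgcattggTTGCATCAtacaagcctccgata
In 5 of these 6 windows the match reads TTGCATCA, the reverse complement of TGATGCAA, and Pycr1 holds TGATGCAA itself. The 6 genes all rose on both scales, with log2 fold changes of 3.80 for Nupr1, 0.86 for the glutathione-degrading enzyme Chac1, 1.46 for the ER-associated degradation factor Herpud1, 1.36 for the lipoprotein receptor Vldlr, 2.88 for the proline synthesis enzyme Pycr1 and 1.73 for the aspartate aminotransferase Got1. Among members not printed, Asns holds TGATGAAA and rose on both scales (0.84). Gars holds TTTCATCA and rose on total counts alone (0.68). Slc7a11 holds 2 matches and did not pass the test.

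Most folding factors of the ER lumen rose on total counts. Of 24 ER lumen chaperones and cochaperones 18 rose and none fell (13 and 1 under TMM), with a median 0.99 above the median gene. Their share of all footprints went from 0.960%, 0.910% and 0.977% to 2.78%, 3.07% and 2.82%, against 1.05% to 1.39% in the controls. Hspa5, the ER HSP70 protein BiP, had 3312, 3194 and 3493 RPM at CPA1 and 12936, 13914 and 12070 RPM at CPA18, after 3192, 3113 and 3855 RPM in the controls (log2 fold change 1.96, SE 0.16, adjusted p = 2.18e-31). From control to CPA1 the level of Hspa5 had moved by −0.02 on the log2 scale. The peptidyl-prolyl isomerase Fkbp11 had 84.7, 104 and 187 RPM at CPA1 and 726, 1201 and 878 RPM at CPA18 (log2 fold change 2.90, SE 0.20, adjusted p = 3.01e-41). Sdf2l1, part of the BiP cochaperone machinery, had 171, 115 and 287 RPM at CPA1 and 642, 739 and 1029 RPM at CPA18 (log2 fold change 2.11, SE 0.19, adjusted p = 5.50e-25). The calcium-binding chaperones Calr (1.52) and Hsp90b1 (1.24) and the nucleotide exchange factor Hyou1 (1.95) rose on both scales, whereas Canx (0.64) rose on total counts alone. Fkbp7 rose from 1 read in each CPA1 library to 5, 4 and 4 reads, too few to fix its fold.

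Promoters of ER chaperone genes are known for the ER stress response element (ERSE), which is bound by ATF6 and XBP1 together with the factor NF-Y. The letters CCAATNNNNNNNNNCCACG, on either strand, occurred in the window of 0.137% of 27025 genes and of 0.216% of the 6492 members. Of the 20 chaperone members with a window 6 held it (30%), and of the 24 ER-associated degradation members 2. The stretch before the start of Hspa5 is shown whole, at chr2:34771840-34772089 on the plus strand, with the match in capitals 46 bases before the start.
Hspa5: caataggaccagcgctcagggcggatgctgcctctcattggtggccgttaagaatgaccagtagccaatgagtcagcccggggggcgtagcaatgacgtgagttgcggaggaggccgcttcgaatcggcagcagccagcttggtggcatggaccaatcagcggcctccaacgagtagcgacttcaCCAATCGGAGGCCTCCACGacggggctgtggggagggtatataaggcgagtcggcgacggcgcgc
Shorter windows are printed for other members, again with the match in capitals.
Calr (chr8:84847060-84847108, minus strand): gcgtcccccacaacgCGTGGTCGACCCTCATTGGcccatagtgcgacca
Creld2 (chr15:88819505-88819553, plus strand): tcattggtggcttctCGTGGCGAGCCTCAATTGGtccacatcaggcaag
Dnajc3 (chr14:118937812-118937860, plus strand): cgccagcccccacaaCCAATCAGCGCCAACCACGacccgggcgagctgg
Canx (chr11:50325785-50325833, minus strand): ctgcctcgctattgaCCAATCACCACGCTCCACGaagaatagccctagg
Derl3 (chr10:75893227-75893275, plus strand): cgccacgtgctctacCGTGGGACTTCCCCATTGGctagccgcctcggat
Syvn1 (chr19:6046517-6046565, plus strand): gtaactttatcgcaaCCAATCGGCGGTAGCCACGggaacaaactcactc
Pdia6 (chr12:17266476-17266524, plus strand): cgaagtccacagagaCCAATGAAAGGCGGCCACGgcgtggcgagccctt
Ero1b (chr13:12565667-12565715, plus strand): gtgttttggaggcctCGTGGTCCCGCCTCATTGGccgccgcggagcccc
In Calr, Creld2, Derl3 and Ero1b the element lies on the other strand, as CGTGG before ATTGG. Calr (1.52), Creld2 (1.76), Dnajc3 (0.83), Canx (0.64), Derl3 (2.57), Syvn1 (1.28) and Pdia6 (1.17) rose in footprints, as log2 fold changes on total counts. Ero1b, the oxidase of the beta cell, holds the same letters and fell, with 553, 387 and 338 RPM at CPA1 and 291, 212 and 200.4 RPM at CPA18 (log2 fold change −0.88, SE 0.19, adjusted p = 9.60e-05).

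Of the 21 members of the list of protein disulfide isomerases and oxidases 12 rose and none fell (8 and none under TMM). The oxidase Ero1b, which fell on both scales, was counted with insulin and prohormone processing and not here. Among the 12 were Pdia4, with 364, 329 and 268 RPM at CPA1 and 1053, 995 and 1060 RPM at CPA18 (log2 fold change 1.68, SE 0.17, adjusted p = 4.86e-19), and Txndc5 (1.58). Of 32 ER-associated degradation genes 17 rose and none fell (13 and none). Derl3, a channel component of that pathway, had 5.78, 15.3 and 14.9 RPM at CPA1 and 89.2, 78.8 and 56.0 RPM at CPA18 (log2 fold change 2.57, SE 0.45, adjusted p = 2.72e-07), which stands on 3 to 7 reads per CPA1 library. The ubiquitin ligase subunit Syvn1 rose by 1.28 and Herpud2 by 1.97 on the log2 scale. Of 37 translocon, signal peptidase and oligosaccharyltransferase genes 32 rose and none fell (22 and none), led by Srp9 of the signal recognition particle (2.26) and the oligosaccharyltransferase subunit Krtcap2 (2.22). Of 56 ER to Golgi traffic genes 32 rose and 1 fell (18 and 1). The cargo receptor Tmed9 had 216, 265 and 338 RPM at CPA1 and 738, 935 and 852 RPM at CPA18 (log2 fold change 1.63, SE 0.18, adjusted p = 4.33e-17), and the coat subunit Sec24b was the 1 that fell (−1.09). Without experiment 1 the rises numbered 8 of the isomerases and oxidases, and without experiment 2 they numbered 21 of the traffic genes.

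The list of UPR sensors and transcription factors, which also holds Wfs1, Nfe2l1, Nfe2l2 and the proteases Mbtps1 and Mbtps2, was less uniform. Of its 12 members 8 rose and none fell (6 and none under TMM), and without experiment 2 the rises numbered 5. Wfs1, an ER membrane protein needed for beta-cell survival, had 102, 135 and 121 RPM at CPA1 and 410.4, 611 and 630.1 RPM at CPA18 (log2 fold change 2.20, SE 0.20, adjusted p = 2.57e-23). Nfe2l1, which drives proteasome genes, had 142, 94.2 and 149 RPM at CPA1 and 815, 458 and 466 RPM at CPA18 (log2 fold change 2.13, SE 0.20, adjusted p = 2.60e-22). The sensor genes Atf6 (1.87), Ern1 (0.89) and Eif2ak3 (1.20), the last of which encodes PERK, rose as log2 fold changes, Eif2ak3 on total counts alone. Xbp1, the target of IRE1, had 272, 293 and 302 RPM at CPA1 and 375, 399 and 473 RPM at CPA18, after 121, 106 and 145 RPM in the controls. The 3 groups of libraries did not overlap, but the step from CPA1 to CPA18 passed the test on total counts (log2 fold change 0.53, SE 0.19, adjusted p = 0.0315) and not under TMM (adjusted p = 0.521), without the block (adjusted p = 0.0724) or by DESeq2 (adjusted p = 0.523). Spliced and unspliced Xbp1 are not separated in these counts.

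Ribosomal proteins rose as a whole list. All 82 members rose on total counts and 78 under TMM, 80 to 82 rose when any 1 experiment was left out, and none fell. Log2 fold changes lay between 0.71 and 2.50, and the list median was 1.11 above the median gene. In 81 of 82 genes every CPA18 library lay above every CPA1 library, a pattern shown by 22.8% of all genes. The summed share was 2.35%, 2.19% and 2.48% of footprints at CPA1 and 5.79%, 6.65% and 6.15% at CPA18, against 3.44% to 3.70% in the controls. Rps12, a protein of the small subunit, had 63.5, 58.6 and 89.2 RPM at CPA1 and 184, 286 and 422 RPM at CPA18, after 142, 142 and 192 RPM in the controls (log2 fold change 2.07, SE 0.24, adjusted p = 4.92e-16). Rpl22l1, a paralog of the large subunit protein Rpl22, had 15.4, 12.7 and 23.4 RPM at CPA1 and 89.2, 108 and 103 RPM at CPA18 (log2 fold change 2.50, SE 0.38, adjusted p = 1.50e-09). From control to CPA1, 55 of the 82 had fallen, where 2.63% of all genes fell, and the list median was −0.63. From control to CPA18, 70 had risen, where 24.2% of all genes rose. These comparisons share libraries with each other and with the main one, so the lower level at 1 h and the later rise are not independent.

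**Figure D3:**
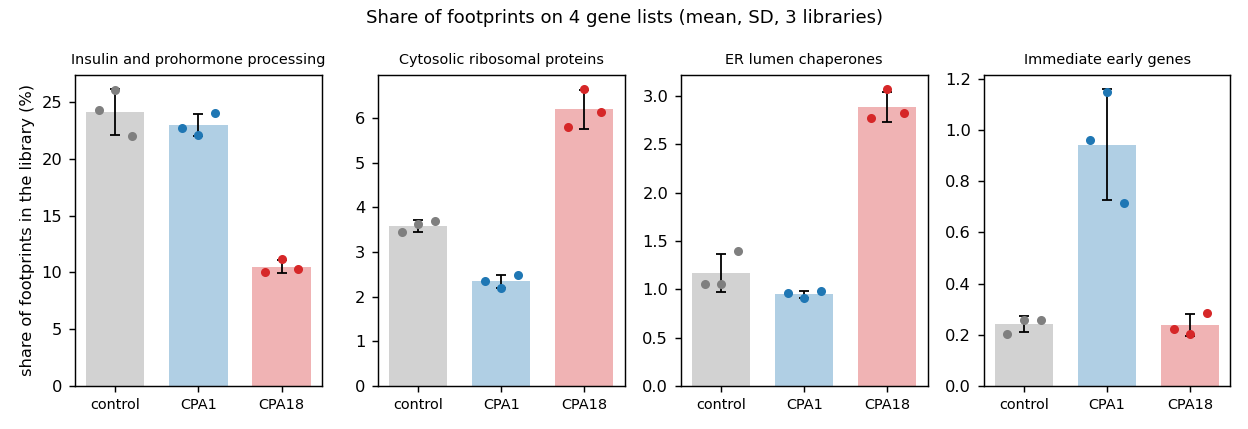
Share of all footprints of a library (%, y axis) on 4 gene lists in the control, CPA1 and CPA18 libraries. Bars are means, whiskers SD and points the 3 libraries. Insulin and prohormone processing is lowest at CPA18, ribosomal proteins are lowest at CPA1 and highest at CPA18, ER chaperones are highest at CPA18, and immediate early genes at CPA1.

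Elongation factors and other mRNAs with a terminal oligopyrimidine (TOP) start, which are controlled with the ribosomal proteins through mTOR, were also lower at 1 h. Of 18 members 13 rose from CPA1 to CPA18 and none fell (7 and none under TMM). From control to CPA1 12 had fallen, where 2.63% of all genes fell. Both comparisons share the CPA1 libraries, so the lower level at 1 h and the later rise are not independent here either. Eef1b2, a subunit of the elongation factor 1 exchange complex, had 419, 441 and 409 RPM in the controls and 183, 135 and 149 RPM at CPA1 and 619, 468 and 412 RPM at CPA18 (log2 fold change 1.66, SE 0.20, adjusted p = 4.97e-15). Rack1, a ribosomal scaffold protein, had 978, 881 and 1033 RPM in the controls and 570.0, 410.1 and 539.7 RPM at CPA1 and 1356, 1246 and 1612 RPM at CPA18 (log2 fold change 1.48, SE 0.17, adjusted p = 1.39e-16). Of 36 translation initiation factors 17 rose and none fell (8 and none), a refit without experiment 3 called 10 up and 1 down, and Eif1, which guards start codon choice, had 372, 379.5 and 404 RPM at CPA1 and 1088, 1216 and 1381 RPM at CPA18 (log2 fold change 1.67, SE 0.17, adjusted p = 1.39e-19). Ribosomal protein mRNAs are short, with a median transcript length of 717 nt against 2952 nt over all genes, and short transcripts rose more often in this comparison. When the members were split by length into 5 groups of near-equal size, 32.4% of the shortest, up to 1606 nt, rose, and 7.04% of the longest, from 4909 nt. Nuclear-encoded respiratory chain genes are as short, at a median of 742 nt, and 21 of 76 rose, none fell (10 and 2 under TMM) and the list median was 0.04 above the median gene. Among the 2014 other genes between the 5th and 95th percentile of ribosomal protein lengths the median log2 fold change was 0.53, against 1.42 for the ribosomal proteins.

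**Figure D4:**
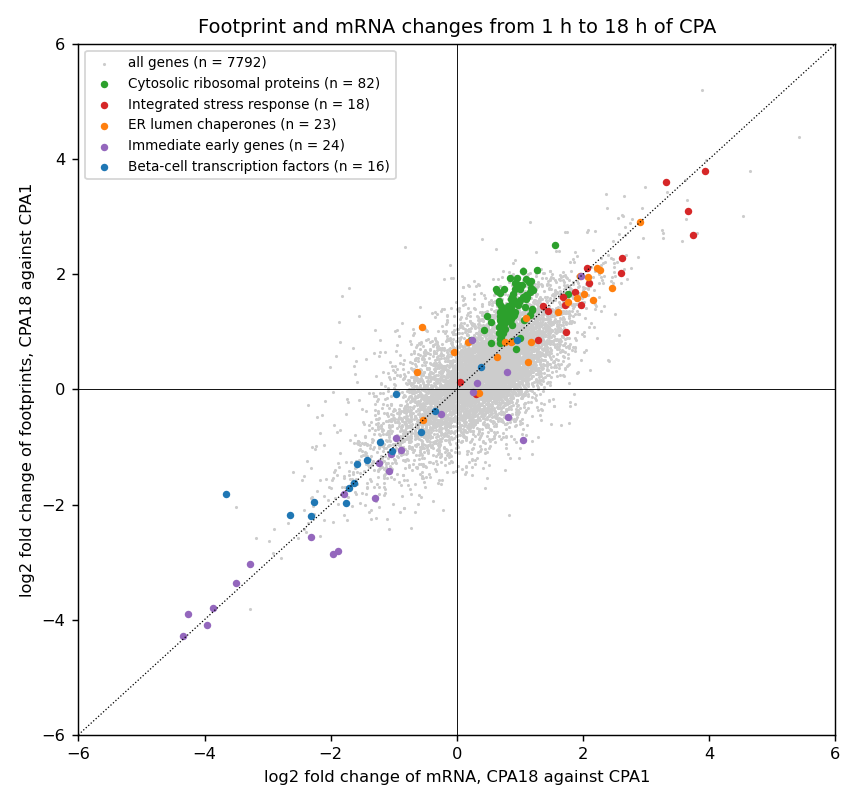
Log2 fold change of mRNA (x axis) and of footprints (y axis), CPA18 against CPA1, for 7792 genes with reads in all 18 libraries. Coloured points are 5 gene lists and the dotted line marks equal change. Most ribosomal proteins lie above the line, while stress response, chaperone, immediate early and beta-cell genes spread along it.

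The mRNA-seq libraries of the same experiments gave the same comparison with no shared library. Over the 7792 genes with reads in all 18 libraries, 2489 mRNAs rose (31.9%) and 431 fell (5.53%) with the block, while the fit without the block called 96 up and 36 down. Against 2920 calls in all, refits without experiment 2 and without experiment 3 made 1448 and 1677 calls. TMM factors called 981 mRNAs up and 1295 down, so this split too depended on the scaling. The changes in footprints and mRNA had a Pearson r of 0.726 and a Spearman rho of 0.673 across genes, which are not independent replicates. Of the 1321 genes whose footprints rose and whose mRNA was measured 1069 rose in mRNA (80.9%) and 3 fell. Of 428 whose footprints fell 265 fell in mRNA (61.9%) and 2 rose. Relative to the median gene of each assay, the integrated stress response had a median of 1.34 in footprints and 1.44 in mRNA, and immediate early genes had −1.52 and −1.63. Beta-cell transcription factors had −1.57 and −1.98. Ribosomal proteins had 1.11 in footprints and 0.40 in mRNA. In 78 of 82 the footprint change exceeded the mRNA change, while over all 7792 genes the median of this difference was −0.12.

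Ribosome occupancy, the footprint change beyond the mRNA change, was tested gene by gene as the interaction of assay and treatment. It was called for 6 of 7792 genes (0.077%), Cdyl2, Gm20594, Lars2, Pts and Tmem38b upward (5 genes, 0.0642%) and Nr1d1 downward (1 gene, 0.0128%), none of them on the 28 lists. At an unadjusted p under 0.05 there were 443 genes. Without the block no gene was called, and TMM called 3. The median change in occupancy was 0.55 over the ribosomal proteins, 0.18 over the elongation factors and other TOP mRNAs and −0.12 over all genes, on the log2 scale. It was 0.19 over both the insulin and the glucose-sensing lists. It was −0.38 over the aminoacyl-tRNA synthetase list and −0.60 over the DNA replication genes. No member of these 6 lists passed the adjusted threshold on its own.

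Cell cycle genes fell in part. Of 47 cyclins, mitotic kinases and checkpoint genes 13 fell and 1 rose (20 and 1 under TMM), and the list median was 0.77 below the median gene. Without experiment 2 the count that fell was 6. The CPA18 values of Aurkb and Bub1b stand on 1 to 11 reads. Aurkb, a mitotic kinase, had 28.9, 43.3 and 23.4 RPM at CPA1 and 11.9, 14.8 and 7.22 RPM at CPA18 (log2 fold change −1.69, SE 0.55, adjusted p = 0.0149), and Bub1b, of the spindle checkpoint, had 61.6, 40.8 and 38.2 RPM at CPA1 and 11.9, 4.92 and 19.9 RPM at CPA18 (log2 fold change −1.63, SE 0.46, adjusted p = 0.00372). The proliferation marker Mki67 (−1.36) and the topoisomerase Top2a (−1.28) fell by over 1 on the log2 scale. Trp53, the tumour suppressor p53, was the 1 that rose (1.16). Of 45 DNA replication genes 4 rose and 2 fell on total counts, and 2 rose and 9 fell under TMM, so which direction had more calls differed between the scales. Without experiment 1 the rises numbered 1, and without experiment 2 the falls numbered 0. The 2 that fell on both scales were the ribonucleotide reductase subunit Rrm1 (log2 fold change −0.82, SE 0.20, adjusted p = 5.11e-04) and the ligase Lig1 (log2 fold change −0.62, SE 0.23, adjusted p = 0.0369). In mRNA-seq 20 of 44 DNA replication genes rose and none fell, where 31.9% of all mRNAs rose and 5.53% fell.

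Of 42 proteasome genes 18 rose and none fell (9 and none under TMM), a refit without experiment 1 called 9 up, and Psmd7 had 67.4, 81.5 and 63.7 RPM at CPA1 and 172, 212 and 197 RPM at CPA18 (log2 fold change 1.45, SE 0.26, adjusted p = 3.79e-07). Of 58 lysosomal genes 5 rose and 10 fell on total counts against 1 and 21 under TMM, with a median 0.49 below the median gene. Without experiment 1 the count that fell was 3 and without experiment 2 it was 2. Gla, alpha-galactosidase, had 42.4, 50.9 and 23.4 RPM at CPA1 and 23.8, 4.92 and 10.8 RPM at CPA18 (log2 fold change −1.65, SE 0.50, adjusted p = 0.00807). Its groups overlapped, and the CPA18 value of experiment 2 lies under 3 reads. Npc1, a cholesterol transporter of the lysosome, had 52.0, 58.6 and 46.7 RPM at CPA1 and 143, 148 and 134 RPM at CPA18 (log2 fold change 1.43, SE 0.28, adjusted p = 1.03e-05). Of 28 autophagy genes 4 rose, or 1 under TMM where 1 also fell, shares near or below the 16.8% and 8.48% of all genes that rose, and 1 or 2 when an experiment was left out. The receptor Sqstm1, also called p62, had 813, 1212 and 1099 RPM at CPA1 and 2468, 3092 and 2862 RPM at CPA18 (log2 fold change 1.44, SE 0.16, adjusted p = 2.62e-17). Sterol synthesis and uptake split, with 10 of 27 rising and 1 falling (6 and 4). Fdps, which makes farnesyl diphosphate, rose by 1.65 and Srebf1, a lipogenic transcription factor, fell by 0.89 on the log2 scale. Of 23 NRF2 antioxidant genes 12 rose and none fell (5 and none), with 7 or 8 when an experiment was left out. Hmox1, the inducible haem oxygenase, had 61.6, 63.7 and 91.4 RPM at CPA1 and 410.4, 532 and 460.4 RPM at CPA18 (log2 fold change 2.69, SE 0.23, adjusted p = 4.57e-28).

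Of 21 genes on the heat shock list 3 rose and 3 fell (1 and 4 under TMM), where 16.8% of all genes rose and 5.37% fell. Without experiment 2 the count that fell was 1. The rises included the mitochondrial chaperonin Hspd1 (1.02) and its mitochondrial partner Hspe1, so the counts do not describe cytosolic genes alone. The cochaperone Bag3, with 159.8, 166 and 283 RPM at CPA1 and 47.6, 78.8 and 95.7 RPM at CPA18, fell (log2 fold change −1.50, SE 0.26, adjusted p = 3.52e-07). Of 30 apoptosis genes listed only 16 were members. Cycs, cytochrome c, rose (1.11) and Txnip, an inhibitor of thioredoxin, fell on total counts (log2 fold change −0.60, SE 0.20, adjusted p = 0.02). Txnip had 364, 869 and 136 RPM at CPA1 and 291, 246 and 169.7 RPM at CPA18, so the groups overlapped, and without experiment 2 its log2 fold change was 0.08.

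Several of the largest single changes lay outside the lists. Niban1, a protein induced by stress, had 15.4, 12.7 and 34 RPM at CPA1 and 262, 276 and 202 RPM at CPA18 (log2 fold change 3.51, SE 0.31, adjusted p = 4.48e-25). Adm2, a peptide hormone of the adrenomedullin family, had 25, 17.8 and 14.9 RPM at CPA1 and 143, 374 and 220.3 RPM at CPA18 (log2 fold change 3.63, SE 0.32, adjusted p = 3.26e-25). Steap1, a metalloreductase of the plasma membrane, had 7.70, 12.7 and 6.37 RPM at CPA1 and 107, 158 and 114 RPM at CPA18 (log2 fold change 3.80, SE 0.42, adjusted p = 6.89e-17), and Cdsn, a protein of cell junctions in the skin, rose from 2, 1 and 4 reads to 14, 39 and 44 reads (log2 fold change 4.38, SE 0.49, adjusted p = 6.53e-17). Erlin1, an ER membrane scaffold, had 9.63, 5.09 and 12.8 RPM at CPA1 and 137, 64.0 and 99.3 RPM at CPA18 (log2 fold change 3.35, SE 0.44, adjusted p = 1.68e-12), with fewer than 3 reads in CPA1 of experiment 2. In these 5 genes no CPA18 library overlapped a CPA1 library. On the other side Tent5a, a poly(A) polymerase that acts on mRNAs of secretory proteins, had 969, 619 and 875 RPM at CPA1 and 167, 44.3 and 135 RPM at CPA18, after 385, 339 and 799 RPM in the controls (log2 fold change −2.93, SE 0.21, adjusted p = 3.04e-37). C2cd4b, a nuclear factor of islet cells, had 269.6, 481 and 380.4 RPM at CPA1 and 41.6, 78.8 and 48.8 RPM at CPA18 (log2 fold change −2.83, SE 0.26, adjusted p = 1.71e-24).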

How the data were processed

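Ribo-seq and mRNA-seq libraries of MIN6 cells under control, CPA1 and CPA18 conditions were compared. The authors deposited raw read counts per RefSeq transcript, made after filters on quality and length by alignment with Bowtie2 (version not given in the sources used here) to the mouse RNA reference of GRCm38. Transcript lengths from the deposited tables served for RPKM in choosing genes to name, and no deposited RPKM was tested. Transcripts were summed to genes (30741 listed, 19 unmatched), so footprints on untranslated regions are included. How the counting divided reads between similar transcripts is not given in the sources used here. Values are shares of a library, so total protein synthesis was not measured.

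Genes with a read in all 9 Ribo-seq libraries were fitted with edgeR 4.0.16 (quasi-likelihood test, R 4.3.3), with library sizes set to total counts, the experiment as a block and all 9 libraries in the fit. Benjamini-Hochberg adjusted p under 0.05 was the threshold in each test. Occupancy was the interaction of assay and treatment over all 18 libraries. The labels' batch numbers pair the samples, and deviations of CPA1 and CPA18 libraries of 1 batch from their group means correlated at 0.0855 to 0.190. DESeq2 1.42.0 and limma 3.58.1 (pseudocounts 0.5 and 1), other scalings, thinning to the smallest total, other filters and leaving out libraries served as alternatives. In simulated Ribo-seq counts of CPA18 against CPA1, 200 genes were set to change, equally up and down, with no difference between experiments. Of these, 55 of 168 genes in the fit changed by 1 on the log2 scale and 139 of 157 changed by 2 were called, with 4 of 7286 and 2 of 7301 genes in the fits called without a change. Far more genes were called in the real data, so these are not the rates of the real comparison. Intervals cover counting error only, and 3 counts were taken as the counting limit.

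The members and lists were chosen with earlier results of these data known. The genes named by rule were the 12 largest rises and falls with the same sign in 3 experiments and a mean of at least 5 RPKM, the 2 largest called changes each way of every list, the genes called for occupancy and 12 genes always named. Other genes were named after their values were seen. Single values of a few list members are not reported here.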

Additional observations from a re-analysis of the deposited data

Results flagged for a closer look

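In 6 genes the footprint change from CPA1 to CPA18 differed from the mRNA change by the interaction test in edgeR, with the difference as footprint minus mRNA on the log2 scale. For Lars2, a mitochondrial leucyl-tRNA synthetase, it was 2.33 (adjusted p = 0.00832). Its footprints took 1.64%, 0.363% and 1.69% of the CPA1 libraries and 3.51%, 0.915% and 2.62% of the CPA18 libraries, so experiment 2 stood below the others in both treatments. Gm20594 had 2.37 (adjusted p = 3.2e-05), with 186, 54 and 111 footprints at CPA1 and 107, 27 and 146 at CPA18. Tmem38b, a potassium channel of the ER, had 2.84 (adjusted p = 0.00832) and stood on 8 to 56 footprints per CPA1 library. Cdyl2, a chromodomain protein, had 3.0 (adjusted p = 0.0444) and stood on 3 to 63 footprints per library. Pts, an enzyme of tetrahydrobiopterin synthesis, had 2.54 (adjusted p = 0.0444). Nr1d1, a repressor in the circadian clock, had −2.09 (adjusted p = 0.0255), its mRNA having risen by 1.80 while its footprints did not pass the test (log2 fold change −0.28). None of the 6 was called without the block, and the cause was not tested.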

How the results depend on the processing

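The count of 1777 Ribo-seq calls was 1010 with DESeq2, 1131 after thinning and 1145 to 1428 when 1 experiment or library was left out, lowest without experiment 2. The 1346 rises became 484 with DESeq2, 681 with TMM, 713 with relative log expression factors, 815 after thinning, 896 with totals that leave out Ins1, Ins2 and Lars2, and 877 to 1056 when libraries were left out. The 431 falls became 808 with TMM, 760 with relative log expression factors, 238 with at least 10 reads in every library and 268 to 441 when libraries were left out. Without the replicate block 1422 genes were called, and of the named genes Lig1, Txnip, Lars2 and Xbp1 lost their call. The median log2 change of 0.31 was −0.0049 with TMM and 0.13 with totals that leave out Ins1, Ins2 and Lars2. The mRNA-seq count of 2920 was 132 without the replicate block and 1448 to 2710 without 1 experiment. Occupancy calls were 3 with TMM, 0 without the replicate block, 1 to 8 without 1 experiment and 20 with totals that leave out Lars2, an alternative chosen after seeing the data. Of 2040 alternative values of 101 named genes 1881 kept direction and side of the threshold, 155 lost the call, 3 gained one and 1 turned, Txnip, whose log2 change of −0.60 ran from −1.20 to 0.083 when libraries were left out, the latter without experiment 2. On simulated data with 200 changed genes, single genes with a log2 change of 1 were often missed. That setting differs from the real data, so the real rate of missed genes is not known. Causes were not tested.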

Other observations

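A gene with no read in some library could not be a member, and 6598 genes with footprints were left out in this way. Without the filter, 118 of them were called by edgeR's quasi-likelihood test, 55 up and 63 down. The genes named here were chosen after their values were seen. Lcn2, a secreted siderophore-binding protein of the innate immune response, had 0, 1 and 3 reads in the CPA1 libraries and 18, 39 and 56 reads in the CPA18 libraries. Acox2, a peroxisomal oxidase of bile acid synthesis, had no read at CPA1 and 8, 16 and 45 reads at CPA18. Hhipl1 went from 0, 0 and 1 reads to 10, 24 and 44 reads.

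On the other side, 6 of the 63 that fell had no read in any CPA18 library. Pcdh9, with the largest fall, had 19, 5 and 4 reads at CPA1. The genes below were picked from the 63 and do not stand for them. They include relatives of the immediate early gene Nr4a1. Nr4a2, of the same receptor family as Nr4a1, had 68, 18 and 60 reads at CPA1 and 0, 3 and 8 at CPA18, and Nr4a3 had 11, 13 and 16 reads and then 0, 1 and 1. Npas4, an activity-dependent transcription factor, went from 38, 21 and 16 reads to 0, 3 and 2. C2cd4a, the paralog of C2cd4b, went from 52, 57 and 75 reads to 0, 9 and 14. These are raw reads, not scaled to the library totals. In Nr4a2, Nr4a3, Npas4 and C2cd4a the CPA18 library of experiment 1, the shallowest, had no read, which is what left each gene out of the set.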
